A study of Mus musculus with 2 samples.

Results

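Claudins and the other genes that build epithelial junctions were examined as 1 group of 38 genes out of the 19938 genes named on the arrays. They were chosen by name, as components of tight junctions, adherens junctions and desmosomes, and each was read from its single-symbol probe set with the highest mean over both arrays. The study compared cortical thymic epithelial cells (cTECs) of 2 kinds of NOD mice, a diabetes-prone strain, at day 7. The Aire transgenic (Tg) mice are a semi-knockin strain in which the β5t promoter drives Aire, while the controls are labelled non-Tg with no further allele given. β5t, encoded by Psmb11, is a thymoproteasome subunit of the cortex, so the design ties the transgene to cells in which that promoter is active. Aire is the transcriptional regulator with which medullary thymic epithelial cells (TECs) express genes of peripheral tissues. The source labels name cells from 7 Tg and from 5 non-Tg, read here as animals pooled for each Affymetrix array. Each group had 1 array, so no difference below has a replicate check, no p-value was computed, and variation between pools, animals and amplifications was not measured. In pooled cells of this kind, more cells of a type and more RNA per cell cannot be told apart.

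Tight junctions seal the space between neighbouring epithelial cells. Their strands are built from claudins together with occludin and its relatives, and scaffold proteins such as ZO-1 tie the strands to actin. Adherens junctions join cells through E-cadherin, whose tail binds the catenins, and desmosomes anchor keratin filaments through desmosomal cadherins, plakoglobin, plakophilins and desmoplakin. In the thymus, cTECs form a loose network around developing thymocytes, and in the mouse claudin-3 and claudin-4 are known as surface markers of Aire-expressing medullary TECs and their precursors.

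Promoter sequences are shown for Cldn1, the member with the widest difference between the arrays, and for Cldn16, its neighbour in gene order. Cldn4 and Epcam are shown as examples of windows with an E-box. Every member but Cldn1 stayed under 1.5-fold, and only 8 of the 26 members with a promoter entry had an E-box. Each run gives the 250 bases before the annotated start, 5′ to 3′, from RefSeq's promoters in build GRCm38.p6. Capitals mark CAGGTG or, from the other strand, CACCTG, the E-box bound by SNAI and ZEB repressors of epithelial genes, and GGGCGG or, from the other strand, CCGCCC, the GC box. No 2 marked motifs overlap in these windows.
Cldn1, GRCm38.p6 chr16:26371840-26372089, minus strand: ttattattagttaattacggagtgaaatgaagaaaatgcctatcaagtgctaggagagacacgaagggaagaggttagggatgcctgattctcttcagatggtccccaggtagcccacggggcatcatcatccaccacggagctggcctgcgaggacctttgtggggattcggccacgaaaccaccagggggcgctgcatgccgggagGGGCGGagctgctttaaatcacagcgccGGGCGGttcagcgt
Cldn16, GRCm38.p6 chr16:26462885-26463134, plus strand: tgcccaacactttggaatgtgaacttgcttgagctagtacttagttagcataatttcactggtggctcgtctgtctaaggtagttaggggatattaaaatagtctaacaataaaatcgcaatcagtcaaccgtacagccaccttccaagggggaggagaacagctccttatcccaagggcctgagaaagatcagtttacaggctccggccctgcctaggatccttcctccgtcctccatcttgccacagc
Cldn4, GRCm38.p6 chr5:134946935-134947184, minus strand: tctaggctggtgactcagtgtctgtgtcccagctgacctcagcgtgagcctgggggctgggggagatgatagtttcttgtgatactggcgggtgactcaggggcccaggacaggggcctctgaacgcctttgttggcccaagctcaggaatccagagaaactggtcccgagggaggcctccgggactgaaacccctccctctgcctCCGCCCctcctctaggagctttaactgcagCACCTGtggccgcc
Epcam, GRCm38.p6 chr17:87635729-87635978, plus strand: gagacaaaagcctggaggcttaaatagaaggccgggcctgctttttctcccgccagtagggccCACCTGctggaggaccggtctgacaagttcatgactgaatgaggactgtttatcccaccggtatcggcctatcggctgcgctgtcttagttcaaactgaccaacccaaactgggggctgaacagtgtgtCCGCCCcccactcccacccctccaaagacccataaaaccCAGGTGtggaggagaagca
The Cldn1 window holds 2 GC boxes and no E-box of this form. Neither motif occurs in the Cldn16 window. The Cldn4 window has 1 of each, and that of Epcam has 2 E-boxes and 1 GC box. A match is a description of letters and not a bound site.

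The windows were searched for all members with an entry, 39 windows of 26 genes, some with several starts. The E-box was found in 9 of these windows, from 8 genes, and in 17.2% of all 32851 promoter windows of the same length. The GC box was found in 24 member windows, from 19 genes, against 32.7% of all windows. The TATA box, TATAAA on one strand and TTTATA on the other, was in 5 member windows and in 12.4% of all. TGANTCA, the AP-1 motif, which reads the same on both strands, was in 3 member windows and in 6.75% of all.

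Levels below are the deposited log2 values, and a log2 ratio is always Tg minus non-Tg. Probe sets bind with different strength, so levels are compared between arrays for 1 gene and not between genes. A gene passed the filter if either array had it at or above that array's median probe set (5.43 for Tg, 5.45 for non-Tg), and 11422 genes did. Values under a floor of 4.80 were raised to it for the ratio. The only available scale for the error of a ratio is the SD between probe sets of 1 gene, 0.302 per probe set over 658 genes with at least 2 of them. Such probe sets share their RNA and their array, so the true error can be larger.

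The array labelled Tg carried more Aire signal, at 7.33 against 6.06, and Psmb11, whose promoter drives the transgene, had 10.51 against 10.15. Of the 16 measured cTEC markers, 16 passed the filter, none was 2-fold apart, and 16 lay above 0 with a median log2 ratio of 0.11. Thymocyte RNA was present as well: 12 of 13 measured markers passed, with a median of -0.05 and 3 ratios above 0. Macrophage or dendritic markers passed in 2 of 9 measured genes, mesothelial in 2 of 5 and parathyroid in 2 of 3, where Pth was more than 2-fold lower in Tg. Both of these parathyroid genes passed on the non-Tg array alone, where they were higher. Over all genes past the filter the median log2 ratio was 0.01 and the SD 0.331.

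Of the 38 junction genes, 38 were measured and 25 passed the filter. All 25 passed on both arrays, so that none entered through the array on which it was higher. Only 1 of them, Cldn1, reached 2-fold higher in Tg, where 0.797% of all genes past the filter did. None was 2-fold lower, where 0.376% of all genes were. At 1.5-fold in either direction the count was still 1, against 7.86% of all genes. The median log2 ratio of the 25 was 0.09, with 15 above 0, 9 below and 1 at exactly 0, while 50.6% of all genes past the filter lay above 0.

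**Figure D1:**
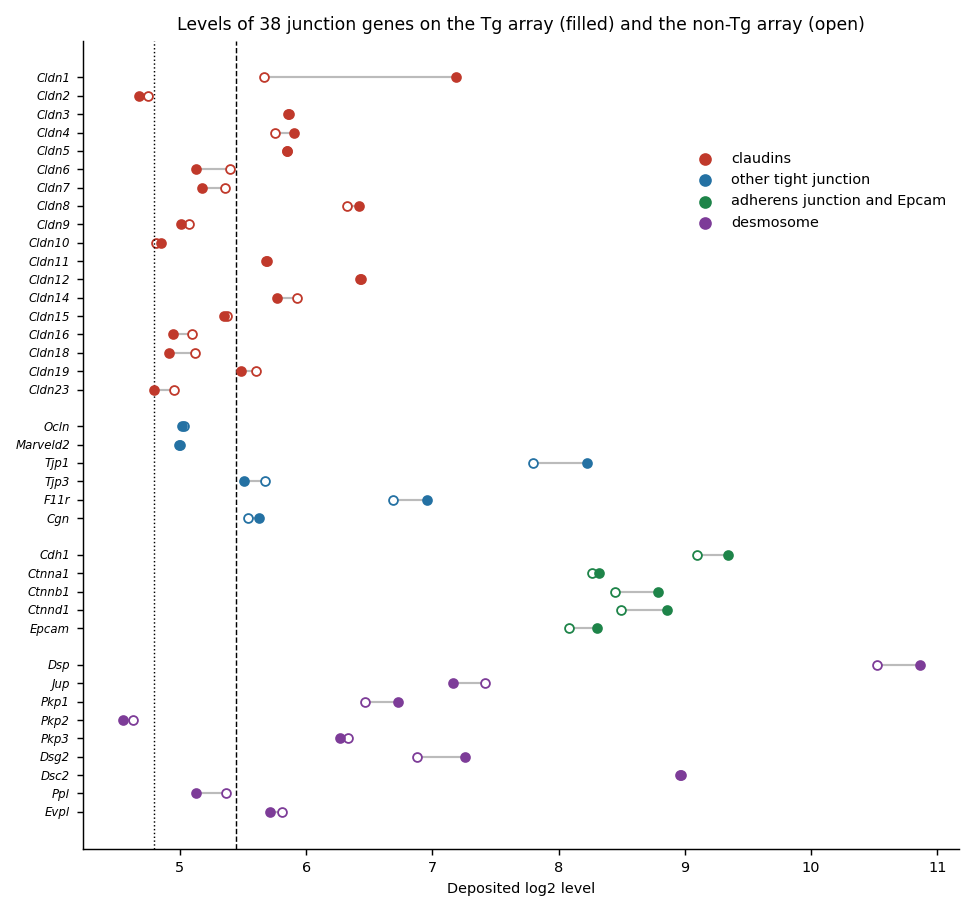
Deposited log2 level (x axis) of each of the 38 junction genes on the Tg array (filled circles) and the non-Tg array (open circles), joined by a line and coloured by junction type. The dashed line is the filter, the mean of its values on both arrays, and the dotted line is the floor at 4.80. The Cldn1 circles stand farthest apart, at 7.18 and 5.66.

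Cldn1 encodes claudin-1, a sealing claudin best known from the barrier of the epidermis. It had a level of 7.18 on the Tg array and 5.66 on the non-Tg array (log2 ratio 1.52, 2.87-fold). The non-Tg value lay close to the filter, and 9 of the 11422 genes past it had a higher ratio. It has 1 probe set, so there was no second reading of the gene. Cldn16, a claudin of renal magnesium transport and the next protein-coding gene on chromosome 16, had 4.95 in Tg against 5.10 in non-Tg and did not pass. P3h2, a collagen prolyl hydroxylase gene next to Cldn1 on the other side, was named after its value was seen. It had 6.72 in Tg against 6.30 in non-Tg (log2 ratio 0.42). Trp63, an epithelial transcription factor gene one place farther on, had -0.12.

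Markers of cells that could carry Cldn1 were read beside it. Of 7 measured keratinocyte or cornified genes, 4 passed the filter, with 0 beyond 2-fold, and their linear levels summed to 355 in Tg against 362 in non-Tg. Those that passed on both arrays were Krt10, with 6.08 in Tg against 6.16 in non-Tg, Cnfn, with 6.80 on both, and Sprr1b, with 5.68 and 5.54. Krt77, with 5.31 and 5.47, passed on the non-Tg array alone, where it was higher. Krt1 and the cornified envelope genes Lor and Ivl did not pass. Medullary TEC markers other than Aire had 8 of 10 past the filter and 0 beyond 2-fold, with 4 ratios above 0, 4 below and a median of 0.03. Ctss had a log2 ratio of 0.77, Tnfrsf11a -0.39 and Cd86 0.72, the last of which passed on the Tg array alone, where it was higher. The list's linear levels summed to 2964 in Tg against 2613 in non-Tg, and Krt5 alone accounted for a difference of that size, at 10.73 against 10.39 on the log2 scale. Tuft cell markers had 5 of 8 past the filter and sums of 447 and 343, or 313 and 298 without Gnat3, the gustducin gene. Gnat3 was itself 2.95-fold higher in Tg. The part of these cells in the Cldn1 difference was not tested.

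The other claudins differed little between the arrays. Besides Cldn1, 8 of 17 passed the filter, and their log2 ratios ran from -0.16 to 0.15 with a median of -0.01. Cldn3 had 5.86 in Tg against 5.85 in non-Tg. Cldn4, which lies beside Cldn3 on chromosome 5, had 5.90 in Tg against 5.75 in non-Tg (log2 ratio 0.15). Both of these medullary claudins thus stood just above the filter on both arrays, and neither came near 1.5-fold.

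Cldn8, a sealing claudin of the distal nephron, had 6.42 in Tg against 6.32 in non-Tg. Cldn12, a claudin of intestinal calcium uptake, had 6.42 and 6.44. These were close to equal on both arrays. Cldn11, which forms the junctions of myelin and of Sertoli cells, had 5.68 in Tg against 5.69 in non-Tg. Cldn14, a gene of the inner ear and kidney, had 5.77 and 5.93. Cldn19, the partner of claudin-16 in the kidney, had 5.49 and 5.61. Both of the latter were slightly lower in Tg, by less than the spread between probe sets.

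Cldn5, the claudin of endothelial cells, had 5.84 on both arrays, equal in every deposited digit, as were 809 of the 28856 probe sets (2.80%). Of 10 endothelial markers, 8 passed the filter, with a median log2 ratio of 0.09 and summed linear levels of 857 (Tg) against 851 (non-Tg). Their part in the Cldn5 signal was not tested.

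The 9 claudins that did not pass lay between 4.68 and 5.39 on both arrays. They were Cldn2, a cation channel of leaky epithelia, Cldn15, its intestinal counterpart, Cldn10, a renal ion channel, Cldn18 of lung and stomach, the neighbours Cldn6 and Cldn9, and Cldn7, Cldn16 and Cldn23. Their log2 ratios ran from -0.27 to 0.04. Cldn6 was the lowest, at 5.13 in Tg against 5.39 in non-Tg, just under the filter. Cldn2 lay under the floor on both arrays, and Cldn23 on the Tg array alone. Genes under the filter were not called, so a difference in these transcripts could have been missed.

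**Figure D2:**
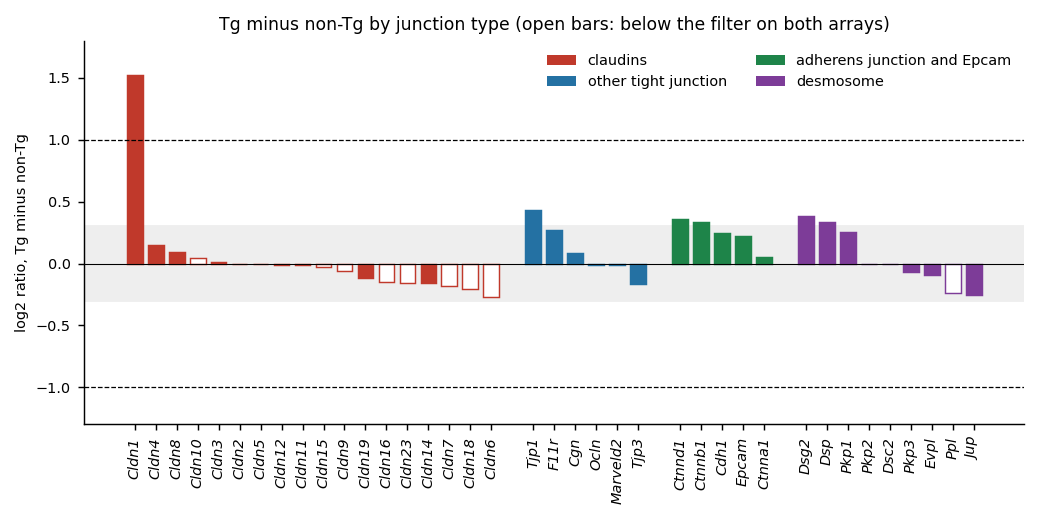
Log2 ratio, Tg minus non-Tg (y axis), of the 38 junction genes, grouped by junction type and ordered within each group. Filled bars passed the filter and open bars did not, the grey band spans 1 SD per probe set (0.302) on either side of 0, and dashed lines mark 2-fold. Cldn1 at 1.52 is the only bar beyond 2-fold, and 5 others that passed, from Tjp1 at 0.43 to Dsp at 0.34, leave the grey band.

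Among the other tight junction genes, 4 of 6 passed the filter, 3 lay above 0 and 1 below, and 0 reached 2-fold. Tjp1 encodes the scaffold ZO-1. It had 8.23 in Tg against 7.80 in non-Tg (log2 ratio 0.43, 1.35-fold), the second highest among the members past the filter. F11r encodes the adhesion molecule JAM-A and had 6.96 in Tg against 6.69 in non-Tg (log2 ratio 0.27). Both were higher on the Tg array, and the F11r ratio was smaller than the SD between probe sets. Cgn, which encodes the scaffold cingulin, had 5.63 in Tg against 5.54 in non-Tg. Tjp3, which encodes ZO-3, had 5.51 in Tg against 5.67 in non-Tg and so pointed the other way.

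Occludin and tricellulin, the strand proteins beside the claudins, gave little signal. Ocln had 5.02 in Tg against 5.03 in non-Tg, and Marveld2, its neighbour on chromosome 13, had 4.99 and 5.00. Neither passed the filter.

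All 5 genes of the adherens junction group, Epcam included, passed the filter and were higher on the Tg array, with a median log2 ratio of 0.25 and none at 1.5-fold. One of the 5, Ctnna1, lay below 0 under quantile normalization, under a lowess centring on level and relative to the cTEC markers. All genes past the filter leaned the same way at such levels. At mean levels from 8 to 9, 60.4% of them lay above 0, with a median of 0.06. From 9 to 11 it was 59.0%, with a median of 0.04. Cdh1, the E-cadherin gene, had 9.34 in Tg against 9.09 in non-Tg (log2 ratio 0.25, 1.19-fold). Ctnnb1, which encodes β-catenin, had 8.79 in Tg against 8.45 in non-Tg (log2 ratio 0.34, 1.26-fold). The highest of the group was Ctnnd1, the gene of the p120 catenin that keeps cadherins at the surface, with 8.86 in Tg against 8.49 in non-Tg and a log2 ratio of 0.36. Ctnna1, which encodes the α-catenin that couples the complex to actin, had 8.32 in Tg against 8.27 in non-Tg. Its ratio of 0.06 was the lowest of the 5. Epcam, a homophilic adhesion molecule used to sort TECs, had 8.30 in Tg against 8.08 in non-Tg (log2 ratio 0.22).

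Desmosome genes went both ways. Of 9, 7 passed the filter, with 3 log2 ratios above 0, 4 below and a median of -0.00 to 2 decimals. Dsg2, the gene of the cadherin desmoglein-2, had 7.26 in Tg against 6.87 in non-Tg (log2 ratio 0.38, 1.30-fold). Dsc2, the gene of the partner cadherin desmocollin-2, had 8.96 and 8.97. Of these 2 desmosomal cadherins, one was thus higher on the Tg array and the other nearly equal, and the gap between them was not tested.

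Dsp encodes desmoplakin, which ties the plaque to keratins, and had 10.86 in Tg against 10.52 in non-Tg (log2 ratio 0.34). Pkp1, a plakophilin of stratified epithelia, had 6.72 in Tg against 6.47 in non-Tg (log2 ratio 0.26). Pkp3, a plakophilin of most epithelia, had 6.27 in Tg against 6.33 in non-Tg. Jup, which encodes plakoglobin, a catenin found in both desmosomes and adherens junctions, was the lowest member past the filter. It had 7.16 in Tg against 7.42 in non-Tg (log2 ratio -0.25, 1.19-fold lower).

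Evpl, which encodes the cornified envelope plakin envoplakin, had 5.72 in Tg against 5.81 in non-Tg. Periplakin (Ppl), its partner, had 5.13 and 5.37, and Pkp2, a plakophilin of heart and simple epithelia, had 4.54 and 4.63. The latter pair did not pass the filter, and Pkp2 lay under the floor on both arrays.

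Small positive ratios were found outside the claudins. A log2 ratio of at least 0.2, a size below the SD between probe sets, was reached by 10 of the 25 members past the filter. It was reached by 25.1% of all genes past the filter and by 20 of 73 such genes of the partner lists. Of the 10 members, 9 were among the 16 that are not claudins, and the count among claudins was 1, Cldn1. The count also rose with level. At mean levels from 5 to 6, 0 of 9 members past the filter reached 0.2, against 18.5% of all genes there. From 8 to 9 it was 4 of 6 members, against 31.1% of all genes. The part of level in the contrast with claudins was not tested. Ratios larger in size than the SD between probe sets numbered 6 of 25, no more than the background of 29.7%. They belonged to Cldn1, Tjp1, Dsg2, Ctnnd1, Ctnnb1 and Dsp.

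The cTEC markers stood above 0, as the adherens junction group did. Their linear levels summed to 31257 in Tg against 29194 in non-Tg, a ratio of 1.07, while the sum over thymocyte markers was 5504 and 5988, a ratio of 0.919. Most of the cTEC sum came from Krt8, Krt18, Ccl25 and Ctsl, at mean levels between 11 and 14, with log2 ratios from 0.02 to 0.14. At such levels the SD of the ratio over all genes past the filter was 0.116. Among the cTEC markers at lower levels, log2 ratios ran from 0.01 for Cd83 to 0.57 for Ackr4. The sum over the adherens junction group was 2191 in Tg against 1835 in non-Tg, a ratio of 1.19. It came from genes at lower levels than most of the cTEC sum, so the ratios of these sums are not compared. After subtraction of the cTEC markers' median ratio, a setting chosen after seeing the data, the adherens junction median was 0.14 and 4 of its 5 genes stayed above 0. The claudin median was then -0.11 with 2 of 9 above 0. That subtraction moved the median of all genes past the filter to -0.10. The part of the cell mixture in these ratios was not tested.

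**Figure D3:**
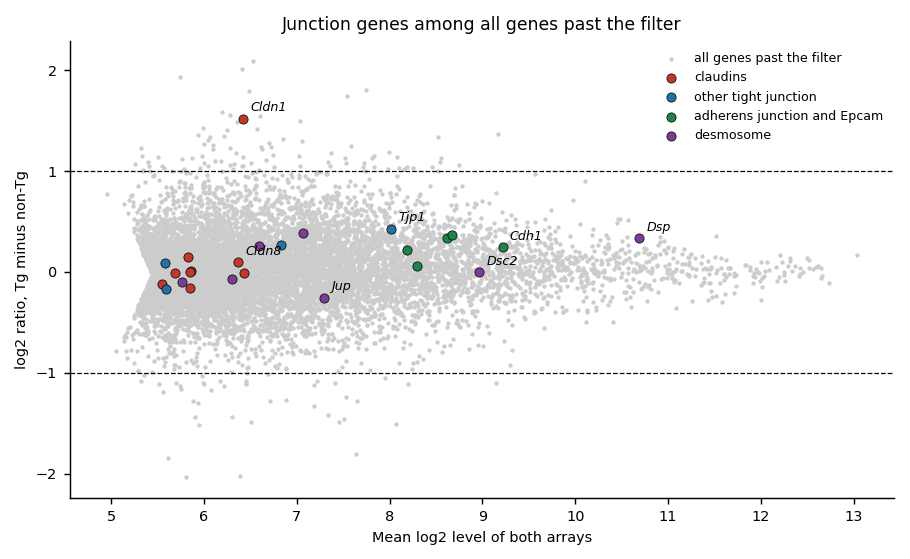
Log2 ratio, Tg minus non-Tg (y axis), against the mean log2 level of both arrays (x axis), for all 11422 genes past the filter (grey) and the 25 junction genes past it (coloured by type). Dashed lines mark 2-fold. Cldn1 stands at the upper edge of the cloud, and the adherens junction genes lie together between 0.06 and 0.36 at mean levels above 8.

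Genes that work with these junctions were read from lists of their own. Tight junction partners had 19 of 25 measured genes past the filter and 0 beyond 2-fold in either direction, with a median log2 ratio of 0.08. The widest of those past the filter were Tjap1, which encodes a tight junction-associated protein, at -0.36, and the polarity gene Pard3 at 0.30. Claudins outside the members, with the claudin domain genes, had 3 of 7 past the filter and 0 beyond 2-fold, with Cldnd1 at 0.20 and Cldn20 at -0.18.

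Adherens junction partners had 14 of 17 measured genes past the filter, 0 beyond 2-fold, 7 ratios above 0 and 7 below, with a median of 0.01. The widest ratios in the list belonged to 2 LIM domain proteins that link junctions to actin. Ajuba had 7.20 in Tg against 6.43 in non-Tg (log2 ratio 0.78, 1.71-fold). Lima1, also known as EPLIN, had 8.38 in Tg against 7.64 in non-Tg (log2 ratio 0.74, 1.67-fold). Both were higher in Tg by more than any member other than Cldn1.

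Desmosome and cornified envelope partners had 8 of 14 measured genes past the filter and 0 beyond 2-fold, with a median of 0.04. Dsc3, the desmocollin of basal layers, had 8.96 in Tg against 8.59 in non-Tg (log2 ratio 0.37), while Dsc2 had -0.00. Krt5, a basal keratin, had 10.73 in Tg against 10.39 in non-Tg (log2 ratio 0.34).

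Regulators of junction genes had 16 of 20 measured genes past the filter, of which 10 passed on both arrays, and 0 were beyond 2-fold. Their median log2 ratio was 0.01, with 9 above 0 and 7 below. Twist1, a mesenchymal transcription factor gene, had the widest ratio of those past the filter, -0.57 (5.41 in Tg against 5.98 in non-Tg), but it passed on the non-Tg array alone, where it was higher. Fibroblast or mesenchyme markers, Twist1 among them, passed in 7 of 10 genes with 0 beyond 2-fold, and their linear levels summed to 1162 in Tg against 1055 in non-Tg. Ehf, an epithelial ETS factor gene, had 0.40. The SNAI and ZEB genes and Grhl2 were named after their values were seen. Of the factors that bind the E-box shown above, Snai2 had 8.11 in Tg against 7.79 in non-Tg and Zeb1 7.36 and 7.26. Snai1 pointed the other way, with 5.95 and 6.03. Zeb2, with 5.53 and 5.39, passed on the Tg array alone, and Snai3, with 5.03 and 4.88, did not pass. Grhl2, an activator of Cdh1 and Cldn4 in the mouse, had 6.80 and 6.79. Over the partner lists together, 73 of 101 measured genes passed the filter, with 38 ratios above 0, 35 below and a median of 0.01.

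**Figure D4:**
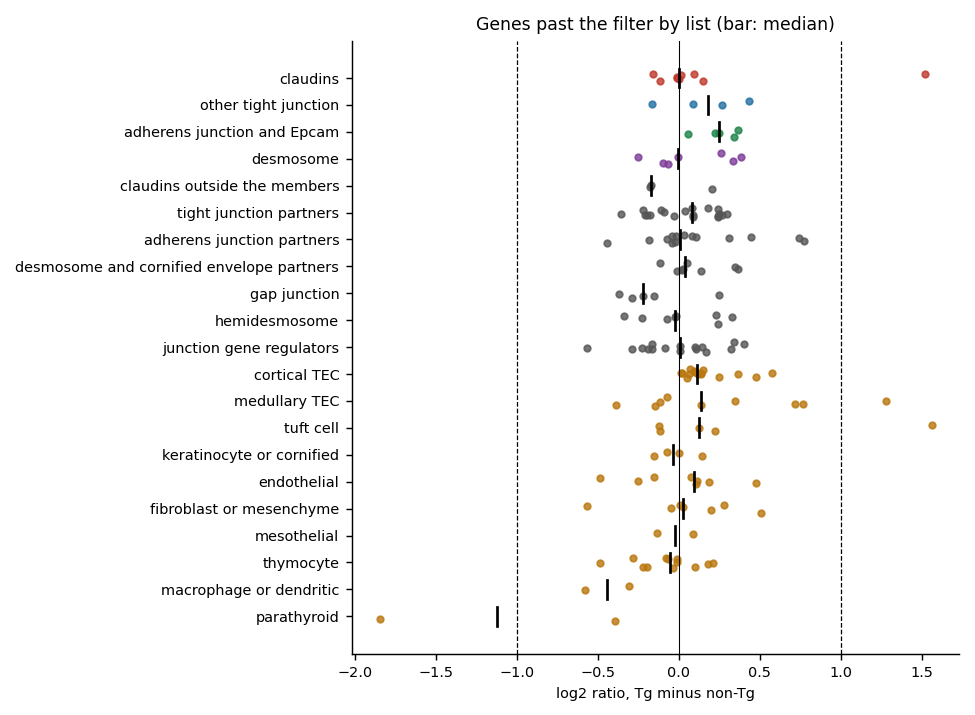
Log2 ratio, Tg minus non-Tg (x axis), of every gene past the filter in the 4 junction groups (coloured), the 7 partner lists (grey) and the 10 cell type marker lists (orange), with a black bar at each median. Dashed lines mark 2-fold, and in the junction groups only Cldn1 lies beyond them, as do Aire, Gnat3 and the parathyroid hormone gene Pth among the markers.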

How the data were processed

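Expression was measured on 2 Affymetrix arrays, 1 of Tg and 1 of non-Tg cTECs, grouped by their genotype labels. Per the labels' protocols, 400 pg of total RNA was amplified to cDNA before labelling. The deposited table has 28856 probe sets with 1 value for each array, taken as log2 from their range of 4.22 to 13.7. The authors' background correction, normalization and build behind the deposited log2 values were not given in the sources used here. Probe sets were named from GEO's annotation of the platform: 21789 probe sets had 1 symbol, 1621 several and 5446 none here, and those with several were not used. All 38 members matched RefSeq symbols by gene ID. Of the members, 37 had 1 probe set and Cldn10 had 2. Promoter entries existed for 26 members. The table held 0 columns of other samples, and no scan dates or detection calls were used.

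The values were used as deposited. The floor was the 25th percentile of all values, the filter the 50th percentile of each array, and 2-fold a log2 ratio of 1. Where a rule of size stands, it replaces a test. The number of arrays limits precision. The members and lists were chosen with earlier results of these data known. Named were all members, the 2 widest ratios of each partner list, and Aire and Psmb11, while other genes were named after their values were seen. Calls were tested on simulated data. The changes were planted only in genes with a higher mean level than Cldn1, so its call was not covered. Scripts used Python 3.11.15 with matplotlib 3.10.9, statsmodels 0.14.6, scipy 1.17.1, pandas 2.3.3 and numpy 2.4.6.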

Additional observations from a re-analysis of the deposited data

How the results depend on the processing

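The counts and medians were recomputed under 11 other settings and under 2 more added after seeing the data, a lowess centring on mean level and a subtraction of the cTEC markers' median ratio. In every one of them Cldn1 was the only member 2-fold higher and 0 members were 2-fold lower, with its log2 ratio between 1.41 and 1.54. Without a filter 38 members counted as passed in place of 25. No single member's ratio moved by more than 0.111. The median ranged from -0.02 to 0.15 over all members past the filter, from -0.11 to 0.03 for claudins, from 0.04 to 0.35 for other tight junction genes, from 0.14 to 0.27 for the adherens junction group and from -0.11 to 0.02 for desmosome genes. The sign of the median thus changed between settings for all members together, for claudins and for desmosome genes. Every setting reuses the same 2 arrays, so the settings cannot settle the sign for any group. Keeping probe sets with several symbols altered nothing, because none lists a member first. No paired analysis was possible because each group had 1 array, and leaving out a replicate was not possible either. Depth was judged only by the filter, each array's median probe set, which is not a measure of background. Under it lay 13 of 38 members and 8516 of all 19938 genes.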

Other observations

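Junctions of other kinds were read from lists as well. Gap junction genes, whose connexins form channels between cells, passed the filter in 5 of 10 measured cases, 0 beyond 2-fold, with 1 log2 ratio above 0, 4 below and a median of -0.22. Of the 5, 4 passed on both arrays. The widest were Gja4, a connexin gene of vessels that passed on the non-Tg array alone, where it was higher, at -0.37 (5.16 in Tg against 5.53 in non-Tg) and Gjc1 at -0.29 (5.97 and 6.26). Gja1, the most widely expressed connexin gene and the one above 0, had 8.29 in Tg against 8.04 in non-Tg and was named after its value was seen. Hemidesmosome genes, which fix basal cells to laminin, passed it in 8 of 8 measured cases, 0 beyond 2-fold, with a median of -0.02. Lamb3, a laminin chain gene, had 6.55 in Tg against 6.89 in non-Tg (log2 ratio -0.34), while Dst, a plakin gene, had 9.02 and 8.69, a ratio of 0.33.

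The second single-symbol probe set of Cldn10 had 4.73 on both arrays, under the floor. A further probe set annotated to both Dzip1 and Cldn10 had 5.51 in Tg against 5.60 in non-Tg and names neither gene alone.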
